A study of Mus musculus with 3 samples.

Results

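The genes described here encode ion channels that open or close in response to stretch, temperature or acid: the TRP channels of the A, C, M and V subfamilies, the Piezo channels, the acid-sensing ion channels (ASIC) and the K2P potassium channels. Members were taken by gene symbol, with Kcnk9 left out, which gave 42 genes of the 46983 gene rows in the count table. They comprised 2 Piezo, 7 TRPC, 6 TRPV, 8 TRPM, 1 TRPA, 5 ASIC and 13 K2P genes. RNA from 3 libraries was sequenced, all of 1 group, the pia-enriched fraction of vehicle-treated mice (Mus musculus). The cells came from microdissected, dissociated leptomeninges, the membranes apposed to the brain surface, and were sorted by flow cytometry to enrich leptomeningeal fibroblasts. No other group was analysed here, and the labels gave neither the agent for which the vehicle served nor the strain, sex, age or sorting gate. Nothing in the labels says whether the libraries came from separate animals, so p-values measure only the spread between these samples, which may be technical.

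As background, TRP channels are cation channels, mostly permeable to calcium, that integrate lipid messengers, temperature, osmolarity and chemical ligands. Piezo proteins are opened directly by membrane tension, and ASICs are sodium channels opened by extracellular protons. K2P channels carry the potassium leak that sets the resting membrane potential, and individual members are shut or opened by pH, stretch, heat and lipids. The meninges are also innervated by sensory axons that use several of these channels to detect painful stimuli.

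Gene counts per library lay between 21002860 and 28704952, and the 42 channel genes together took 0.0877% ± 0.017 of them (SD, n = 3). Levels are counts per 1000000 (CPM) on scaled library sizes, and levels of different genes are compared per kilobase of exon. A count of 0 allows up to 3 counts, which is 0.152, 0.101 and 0.116 CPM in libraries 1, 2 and 3; this floor covers counting error only. The defining fibroblast genes were abundant in every library, with Col1a2 at 11497 ± 935 CPM and Pdgfra at 135 ± 11.9 CPM (SD, n = 3). Library 1 stood apart: the summed level of 7 choroid plexus epithelial markers was 184 CPM there against 3283 and 4964 CPM in libraries 2 and 3, and that of 8 macrophage and microglial markers 12.0 CPM against 255 and 720 CPM. Of the choroid plexus markers 6 of 7 were lowest in library 1, and Aqp1 was highest there at 73.3 CPM against 56.9 and 60.6 CPM. Ttr and Enpp2 made up most of that sum in libraries 2 and 3. None of the genes on either list was at 0 in any library. The 3 erythroid markers ran the other way, at 747, 185 and 312 CPM. In bulk RNA, fewer cells of a type and less RNA per cell cannot be told apart.

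Of the 42 channel genes, 35 had a count in at least 1 library, 26 had a count in all 3, and 23 reached a mean of 1 CPM. Among all gene rows of the deposited counts, 30.2% reached that level, and 60.7% of protein-coding rows. Only 8 members exceeded 10 CPM and 1 exceeded 100 CPM. Ordered per kilobase, Kcnk5 came first at 169 ± 74.9 CPM per kilobase, followed by Trpv2 at 9.06 ± 3.05, Trpm7 at 7.15 ± 4.04 and Trpm4 at 3.79 ± 0.33 (SD, n = 3). The range of Kcnk5 over libraries did not overlap that of Trpv2. Every other pair of neighbours in the order overlapped, so neighbours below Kcnk5 were not separated by these libraries. Some genes further apart were. The lowest Trpv2 value, 5.66, lay above the highest of each gene ordered after Trpm7, of which the largest was 4.62 for Kcnk1. The same 10 genes led when the longest transcript was used as the length, and 9 of them led when library 1 was left out.

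**Figure D1:**
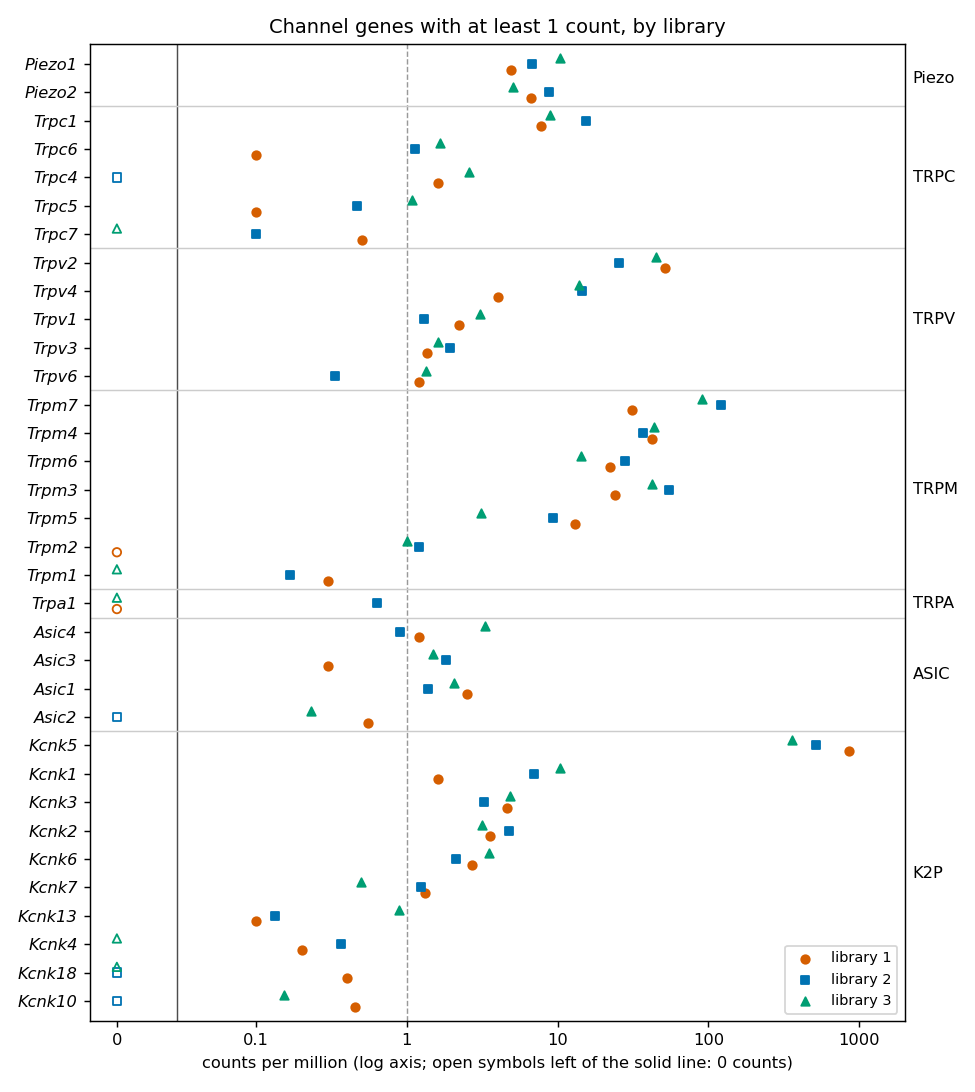
CPM of 34 of the 35 channel genes with at least 1 count, in each of the 3 libraries, on a log axis and grouped by family; open symbols left of the solid line mark 0 counts, and the dashed line marks 1 CPM. Kcnk5 lies far to the right of all others, and the genes with an open symbol stay below 3 CPM.

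**Figure D2:**
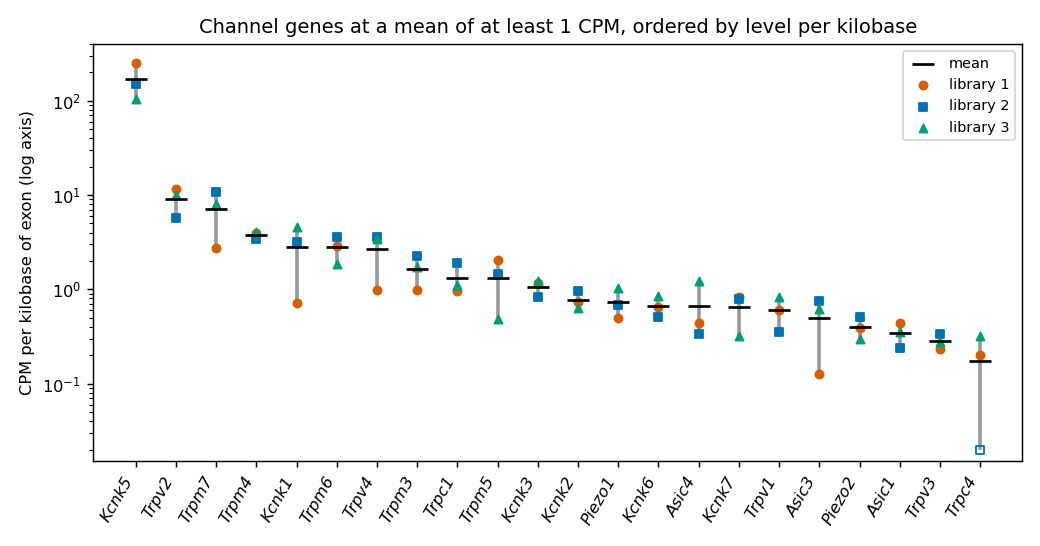
Level per kilobase of exon (log axis) of 22 of the 23 channel genes at a mean of at least 1 CPM, ordered by their mean; grey bars span the 3 libraries, black dashes are means, and the open square for Trpc4 marks 0 counts. The bar of Kcnk5 stands clear of the rest, while each other bar overlaps the next.

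Kcnk5 encodes TASK-2, a K2P channel that is shut by extracellular acid, opened by alkaline pH and involved in volume regulation of epithelial cells. Its level was 856, 516 and 358 CPM in libraries 1, 2 and 3, from 16950, 15367 and 9274 counts. Library 1 was highest and library 3 lowest, by a factor of 2.39. This variation did not pass the test for genes variable between libraries (edgeR goodness of fit, adjusted p = 0.988). Per kilobase Kcnk5 ranked 276 of the 46488 gene rows with an annotated length, and it made up 95.7% ± 2.67 of the summed K2P level (SD, n = 3). The erythroid markers were also highest in library 1, and the summed choroid plexus markers lowest; their part in the level of Kcnk5 was not tested. The gene (ENSMUSG00000023243.8) lies on the minus strand of chromosome 14, 20140057 to 20181809 (GRCm38), and shares no exonic base with another annotated gene. On the same strand lies Kcnk16, at 20261376 to 20269199, the pancreatic alkaline-activated channel TALK-1, which had 0 counts in all libraries.

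The 250 bases upstream of the start of these neighbours are shown because one is the most abundant channel gene and the other had no count; that of Trpm7, the most abundant TRP gene by CPM, is added for comparison. Sequences are from RefSeq on GRCm38.p6, 5′ to 3′ on the gene's strand (minus for all 3), at chr14:20181783-20182032, chr14:20269270-20269519 and chr2:126876262-126876511. Capitals mark GC boxes (GGGCGG, searched on both strands).
Kcnk5: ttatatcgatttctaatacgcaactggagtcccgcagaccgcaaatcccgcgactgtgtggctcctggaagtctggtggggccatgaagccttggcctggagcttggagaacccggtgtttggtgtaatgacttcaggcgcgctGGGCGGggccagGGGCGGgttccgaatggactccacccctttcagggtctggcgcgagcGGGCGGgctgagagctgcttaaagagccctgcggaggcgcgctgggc
Kcnk16: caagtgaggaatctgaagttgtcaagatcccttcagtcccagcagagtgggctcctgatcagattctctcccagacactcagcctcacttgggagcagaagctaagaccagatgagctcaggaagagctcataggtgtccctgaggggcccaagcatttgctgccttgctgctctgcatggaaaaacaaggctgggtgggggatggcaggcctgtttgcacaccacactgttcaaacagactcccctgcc
Trpm7: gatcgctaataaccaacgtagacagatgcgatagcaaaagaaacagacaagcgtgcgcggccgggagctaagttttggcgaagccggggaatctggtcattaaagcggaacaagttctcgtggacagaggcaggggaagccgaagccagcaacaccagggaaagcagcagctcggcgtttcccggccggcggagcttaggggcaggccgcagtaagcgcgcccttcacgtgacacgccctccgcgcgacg
The Kcnk5 window held 3 GC boxes and the other two none, where 32.7% of 32851 RefSeq windows of the same length held at least 1. GC content was 62.8% for Kcnk5, 54.8% for Kcnk16 and 60.4% for Trpm7, with 19, 0 and 26 CpG dinucleotides, against medians of 52.4% and 6 over all windows. The E-box CACGTG, present in 6.02% of windows, occurred once in the Trpm7 window and in neither of the others. The TATA box (TATAAA), held by 12.4% of all windows on either strand, was in none of the 3. Nor was the CCAAT box, which 33.8% held, or the TEAD motif GGAATG, which 12.6% held. A match is a description of the letters only, and nothing follows from its absence.

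The other K2P genes were far lower. Kcnk1, which encodes the weak inward rectifier TWIK-1, was at 1.62, 7.02 and 10.3 CPM, lowest in library 1. The summed choroid plexus markers were lowest in the same library, and their part in this difference was not tested. Kcnk3 (TASK-1, shut by mild extracellular acid) was even, at 4.65, 3.26 and 4.82 CPM. Kcnk2 encodes TREK-1, which opens on stretch, heat and intracellular acid, and stood at 3.59, 4.77 and 3.16 CPM. Kcnk6, the gene of TWIK-2, was at 2.73, 2.12 and 3.51 CPM. Kcnk7, whose product has no known current of its own, had 1.31, 1.24 and 0.501 CPM. Kcnk3, Kcnk2, Kcnk6 and Kcnk7 differed by at most 2.62-fold between the highest and the lowest library. Of the rest, Kcnk4 (TRAAK, opened by stretch) had 4, 11 and 0 counts in libraries 1, 2 and 3, and Kcnk10 (TREK-2) 9, 0 and 4. Kcnk13, a potassium channel of microglia, had 2, 4 and 23 counts; macrophage and microglial markers also had their highest sum in library 3, and their part was not tested. Kcnk18 (TRESK) had 8 counts, all in library 1. No count was found for Kcnk12, Kcnk15 or Kcnk16.

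The ASIC genes summed to 1.57 ± 0.59 CPM per kilobase (SD, n = 3). Asic1, a principal proton-gated subunit of brain, was at 2.53, 1.38 and 2.04 CPM. Asic4, whose product alone forms no proton-gated channel, was at 1.21, 0.907 and 3.32 CPM, highest in library 3. Asic3, best known from sensory neurons, was at 0.303, 1.81 and 1.50 CPM, with only 6 counts in library 1. Asic2 had 11, 0 and 6 counts, and Asic5 none. Of the 12 genes listed for acid across families, 11 had a row in the table and 8 of these reached 1 CPM: Kcnk1, Kcnk3, Kcnk5, Kcnk6, Asic1, Asic3, Asic4 and Trpv1. Kcnk5 supplied most of the summed level of the list, 872, 534 and 386 CPM. Asic4 stood on the list as a family member, and Kcnk2, opened by intracellular acid, did not.

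Both Piezo genes were present at low levels. Piezo1 (ENSMUSG00000014444.16, chromosome 8, 122481698 to 122551329), the broadly expressed tension-gated channel, was at 4.95, 6.79 and 10.4 CPM, highest in library 3. Piezo2, the touch and proprioception channel of sensory neurons, was at 6.67, 8.84 and 5.05 CPM. The ranges of the 2 genes overlapped in CPM. Piezo1 shares 2441 exonic bases with Ctu2 on the opposite strand (12.6 ± 2.46 CPM), where reads cannot be assigned without the strand setting. Among 8 genes listed for stretch, 5 reached 1 CPM: Piezo1, Piezo2, Trpv4, Trpc1 and Kcnk2. Trpv2, also reported to respond to stretch, was not on the list. It was at 51.8, 25.4 and 44.8 CPM. Without it the list summed to 27.7, 51.9 and 43.2 CPM, and the order of the libraries depends on its absence. The sum as listed was lowest in library 1. The summed choroid plexus markers (184, 3283 and 4964 CPM) and macrophage and microglial markers (12.0, 255 and 720 CPM) were lowest there too, and their part was not tested. Of the 5 at 1 CPM, Piezo1, Trpv4 and Trpc1 were lowest in library 1, and Piezo2 and Kcnk2 in library 3. Of all genes tested, 40.3% were lowest in library 1.

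Trpv4 (ENSMUSG00000014158.11, chromosome 5, 114622152 to 114658421) encodes a channel opened by swelling, stretch and warmth. It was at 4.04, 14.6 and 13.9 CPM, with library 1 well below the others and those alike. Its longest transcript had a GC content of 59.0%. The log2 difference of library 1 from the other two was -1.81, or -2.21 once corrected for GC content and exon length. Choroid plexus epithelium is a known site of Trpv4; its summed markers were lowest in library 1 too, and their part in the Trpv4 difference was not tested. Trpv2 (ENSMUSG00000018507.16, chromosome 11, 62574486 to 62600515), a channel reported to respond to noxious heat and stretch and known in macrophages, was the most abundant of its subfamily at 51.8, 25.4 and 44.8 CPM. It was highest in library 1, where the macrophage and microglial markers had their lowest sum, and their part was not tested.

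Trpv1, the capsaicin and heat receptor of pain fibres, was at 2.22, 1.31 and 3.08 CPM. Its neighbour on chromosome 11, the warmth channel Trpv3, was at 1.36, 1.95 and 1.62 CPM. The 5 sensory neuron markers summed to 17.8, 30.1 and 59.3 CPM, of which Calca took 16.1, 28.7 and 58.3 CPM. Scn10a had no count in any library, and 1 of the 5 reached a mean of 1 CPM. Their part in the levels of Trpv1 and Trpv3 was not tested. The calcium channel gene Trpv6 of absorptive epithelia had 24, 10 and 35 counts, and Trpv5 had none.

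The TRPM subfamily summed to 16.8 ± 4.51 CPM per kilobase of the union of exons, and to 29.7 when divided by the longest transcript instead. Trpm7 (ENSMUSG00000027365.14, chromosome 2, 126791565 to 126876230), a channel fused to a kinase that carries magnesium, calcium and zinc, was at 31.2, 121 and 90.2 CPM. Its relative Trpm6, the magnesium channel of kidney and gut, was at 22.2, 28.0 and 14.3 CPM. Trpm4 (ENSMUSG00000038260.9, chromosome 7, 45302632 to 45333780), a sodium and potassium channel opened by intracellular calcium, was the steadiest of the 23 genes at 42.4, 37.0 and 43.7 CPM, within a factor of 1.18. Trpm5, its close relative from taste cells, was at 13.1, 9.31 and 3.12 CPM, lowest in library 3. Trpm5 shares 220 exonic bases with Tssc4 on the opposite strand, which was at 76.4 ± 28.7 CPM and likewise highest in library 1. With the strand setting unknown, reads there cannot be assigned.

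Trpm3, a heat and neurosteroid receptor of sensory neurons that is also known in choroid plexus, was at 23.9, 54.9 and 42.6 CPM. It was lowest in library 1, as was the sum of choroid plexus markers, whose part was not tested. Trpm2, a warmth and oxidative stress channel of myeloid cells, had 0, 36 and 26 counts, and the summed macrophage and microglial markers were also lowest in library 1. Their part was not tested. Trpm1, the melanocyte and retinal bipolar cell gene, had 6, 5 and 0 counts, and the 5 melanocyte markers summed to 7.43, 7.46 and 7.90 CPM. Of these, 3 reached a mean of 1 CPM (Tyrp1, Pmel and Mlana), Dct had counts in every library and Tyr was at 0 in all. Their part in the counts of Trpm1 was not tested. Of 8 genes listed for heat and warmth, 7 reached 1 CPM, all but Trpm2. Their summed level was 139, 146 and 154 CPM in libraries 1, 2 and 3. Of the 3 genes listed for cold, 0 reached 1 CPM: the menthol receptor Trpm8 had no count, the irritant receptor Trpa1 had 19 counts, all in library 2, and Trpc5 had 2, 14 and 28.

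TRPC channels act downstream of phospholipase C. Trpc1, which forms heteromeric channels with other TRPC proteins, led at 7.73, 15.4 and 8.91 CPM. Trpc4 was uneven, with 32, 0 and 67 counts in libraries 1, 2 and 3, a mean of 1.40 CPM. Trpc6, opened by diacylglycerol, had 2, 34 and 43 counts, and Trpc7 had 10, 3 and 0. Trpc2, the vomeronasal channel gene, had no count, but all 2874 of its exonic bases are shared on the same strand with Xndc1 and Xntrpc, so this 0 is not a measure of its level. The subfamily summed to 2.49 ± 0.56 CPM per kilobase (SD, n = 3), and to 4.16 with the longest transcript as length.

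Pairs of channels with related roles were compared within libraries as log2 ratios per kilobase. With 3 libraries the two-sided exact sign-flip permutation test cannot go below p = 0.25, and over 6 pairs the smallest value adjusted by Benjamini-Hochberg was 0.30. Trpv2 exceeded Trpv4 in 3 of 3 libraries, with Trpv4 minus Trpv2 at -1.91 ± 1.47 (exact p = 0.25, n = 3), and at -1.10 without library 1. Kcnk1 exceeded Kcnk2 in libraries 2 and 3, with Kcnk2 minus Kcnk1 at -1.70 and -2.85, whereas in library 1 the difference was -0.0076. Trpc1 exceeded Trpc6 in 3 of 3 libraries, by 8.50-fold and 3.39-fold in libraries 2 and 3. In library 1, where Trpc6 had 2 counts, the ratio was 48.3 with an exact 95% interval for counting error of 13.1 to 402. Asic1 exceeded Asic2 by 3.38-fold and 6.56-fold in libraries 1 and 3. In library 2 Asic2 had 0 counts. Taken at the floor of 3 counts it gave a ratio of 10.2, and the exact 95% interval for counting error began at 7.89. Piezo1 minus Piezo2 was 0.36, 0.41 and 1.82, and the interval of the ratio in library 1, 0.977 to 1.68, included equality. The intervals in libraries 2 and 3, 1.10 to 1.60 and 2.87 to 4.41, did not. They cover counting error only and hold for the union of exons as length. In CPM, with no length correction, Piezo2 was the higher of the pair in libraries 1 and 2. By the longest transcript the mean of Piezo1 minus Piezo2 was 0.46 (exact sign-flip p = 0.75, n = 3). Trpm7 minus Trpm4 changed sign between libraries, at -0.51, 1.65 and 0.98 (exact p = 0.50, n = 3).

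**Figure D3:**
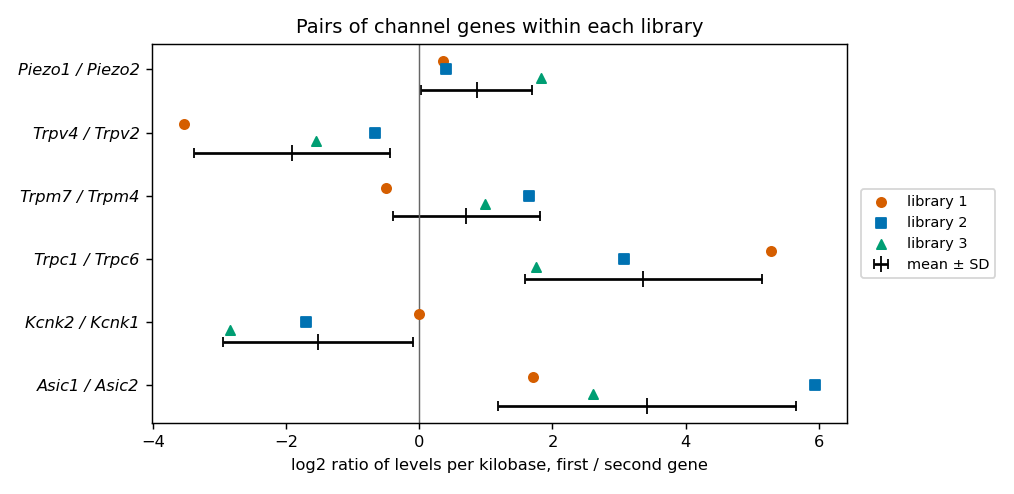
Log2 ratio of the levels per kilobase of 6 pairs of channel genes, 1 symbol per library, with the mean and SD in black below. All libraries lie on 1 side of 0 for 5 pairs, with Kcnk2 over Kcnk1 at 0 in library 1; the library 2 value of Asic1 over Asic2 rests on a prior count of 0.5, since Asic2 had no count.

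Variation between libraries was tested over all genes with at least the equivalent of 10 counts in each library, which kept 14409 genes and 21 members. Genes nearly missing from 1 library did not enter, Trpc4 and Asic3 among them. The goodness-of-fit test of edgeR, adjusted by Benjamini-Hochberg, called 0 of the 21, where 0.423% of all genes tested were called. At an unadjusted p under 0.05 it found 2, Trpm7 and Kcnk1, against 7.31% of all genes. The smallest adjusted p was 0.351, for Trpm7, which was 3.88-fold higher in library 2 than in library 1. For Kcnk1, 6.39-fold between libraries 3 and 1, it was 0.531. The leading gene changed when the same test was run with GC content and length trends removed. The smallest adjusted p was then 0.162, for Trpv4. Trpm5, Trpv4 and Kcnk1, but not Trpm7, then had an unadjusted p under 0.05, and 0 members were called. With dispersions from DESeq2 in the same statistic, 0 members and 0 of all genes were called, and 1 member, Kcnk1, had an unadjusted p under 0.05.

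Library 1 was then set against the others beside base composition. It was lowest in 8 of the 21 members, where 40.3% of all genes tested had their lowest value there. Trpm7, with a GC content of 40.1%, lay at a log2 difference of -1.74 from the mean of libraries 2 and 3. It lay at -0.47 after correction for GC content and exon length together, whose shares were not separated. Trpm3, at 45.6% GC, moved from -1.02 to -0.41. By contrast Kcnk1, at 51.8% GC, lay at -2.38 and then -2.69. Kcnk5, at 55.2% GC, lay at 0.99 and then 0.58, and Trpm5 at 1.28 and then 0.91. Across the 21 members, which share 3 libraries, Spearman's coefficient between GC content and the difference was 0.332, beside 0.598 over all genes tested.

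**Figure D4:**
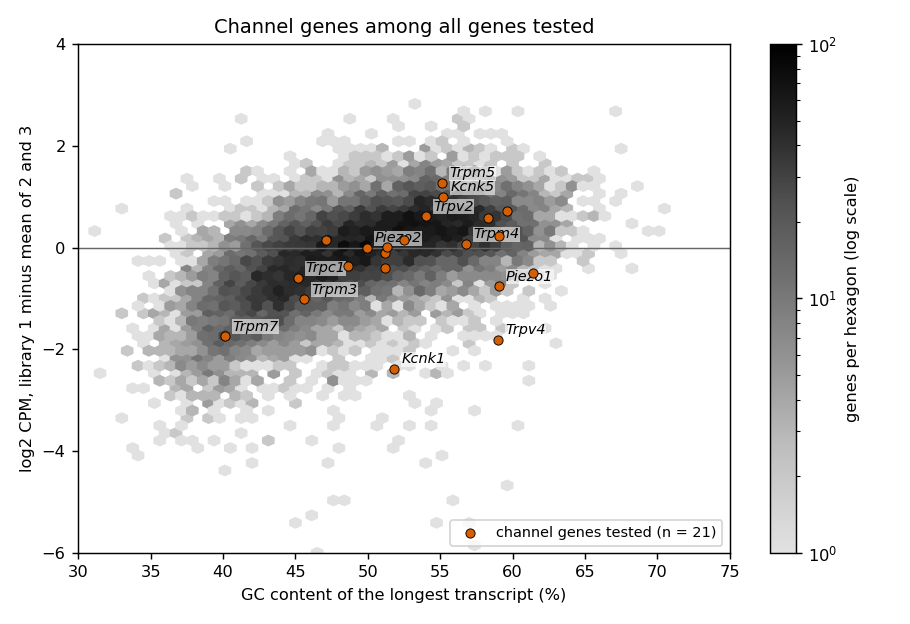
Log2 CPM in library 1 minus the mean of libraries 2 and 3 against the GC content (%) of the longest transcript, for all genes tested (grey hexagons, darker with more genes on a log scale) and the 21 channel genes tested (orange). Trpm7 lies within the trend at -1.74, whereas Kcnk1 at -2.38 and Trpv4 at -1.81 lie below it.

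Genes that work beside these channels were given by lists. Of 13 other stretch channels and Piezo partners, 10 reached 1 CPM. The most abundant per kilobase were Tmem120a at 36.0 ± 13.5 CPM, the osmosensitive channel gene Tmem63a at 80.0 ± 13.0 CPM and the polycystin gene Pkd1 at 187 ± 50.4 CPM (SD, n = 3). Of 9 other acid sensors, 5 reached 1 CPM. The proton-sensing receptor Gpr4 led at 66.7 ± 7.86 CPM, before the proton-activated chloride channel Tmem206 at 20.4 ± 6.13 CPM and the proton channel Otop1 at 1.54 ± 0.88 CPM. All 5 endolysosomal TRP relatives and two-pore calcium channels reached 1 CPM, with Tpcn1 at 41.6 ± 12.2 CPM, Tpcn2 at 20.6 ± 1.42 CPM and Mcoln2 at 8.15 ± 3.24 CPM. So did the 5 store-operated partners of TRPC, led by Orai3 at 79.4 ± 6.80 CPM, Stim1 at 66.2 ± 3.29 CPM and Stim2 at 17.4 ± 3.62 CPM. The 7 receptor-coupling genes all reached it, with Gna11 at 81.7 ± 31.0 CPM and Plcb4 at 68.2 ± 16.7 CPM. Over these lists together, 0 of 31 genes tested were called (edgeR goodness of fit, adjusted), and 0 had an unadjusted p under 0.05, where these shares were 0.423% and 7.31% of all genes tested.

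Other channel families were counted in the same way. A mean of 1 CPM was reached by 6 of 13 K2P genes, 7 of 15 inward-rectifier potassium genes, 16 of 40 voltage-gated potassium genes, 7 of 10 voltage-gated calcium pore genes, 2 of 9 voltage-gated sodium pore genes and 6 of 9 Clcn genes. In level Kcnk5 stood above the leading gene of each, 169 ± 74.9 CPM per kilobase against 30.1 ± 5.66 for the chloride transporter gene Clcn4, 23.1 ± 18.9 for Kcnj13 and 17.2 ± 8.14 for Kcna1 (SD, n = 3). Leading genes of the calcium and sodium families, Cacna1g and Scn7a, were at 12.5 ± 2.58 and 8.69 ± 6.30 CPM per kilobase.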

How the data were processed

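Sorted leptomeningeal cells of 3 libraries were amplified as cDNA from 2 ng of RNA over 12 cycles and sequenced as paired 50 bp reads, per the labels' protocols. The values are raw counts per gene as the authors deposited them, whole numbers with no normalization. HTSeq 0.5.3, DESeq2 1.22.1 and mm10 are named in the submitters' processing notes, with no role given; the aligner, annotation release and strand setting are not given in the sources used here. Of all reads tabulated, 41.4% ± 3.64 (SD, n = 3) stood in 5 rows that name no gene and were left out.

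Lengths, positions and overlaps came from GENCODE M21 (GRCm38), in which 46488 of 46983 gene identifiers were found, and the GC content from its longest transcript. TMM scaling of library sizes used edgeR 4.0.16 (R 4.3.3), and genes were kept by filterByExpr at a minimum count of 10. With 1 group there is no contrast, so genes variable between libraries were sought with the edgeR goodness-of-fit statistic. It was used on trended dispersions, with a threshold of 0.05 on adjusted p. On simulated data at the fitted dispersion the procedure missed many large changes, so a gene not called may still vary. Log2 ratios used a prior count of 0.5, and trends were removed by lowess. DESeq2 1.42.0 served for alternatives. Named with values were members at 1 CPM or more, well-known sensors below it, and the 3 most abundant per kilobase of each pathway list; members and lists were chosen with earlier results of these data known. A few genes that this rule would name are not reported here. Promoter windows were found for 35 of the 42 members.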

Additional observations from a re-analysis of the deposited data

Results flagged for a closer look

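Reads that the table gives to no gene lay outside the measurements used. Averaged over 3 libraries, 16.5% of the reads had more than 1 alignment, 14.7% were not aligned, 8.89% aligned where no gene was annotated and 1.35% fell on more than 1 gene. Reads of the last kind may include some from exons that members share with other genes. All exonic bases of Trpc2 are shared on the same strand, whereas 2441 bases of Piezo1 and 220 of Trpm5 are shared with a gene on the opposite strand, where the unknown strand setting decides.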

How the results depend on the processing

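The count of members called variable was 0 under all 11 alternatives, with the smallest adjusted p of a member between 0.0577 (Trpc4, with a filter on a mean of 10 counts, under which 27 members were tested) and 0.9997 (DESeq2 dispersions). Over all genes the main count of 61 was 15 to 33 with a library left out, 59 to 70 with other scalings or at least 10 counts in every library, 86 with a common dispersion, 112 after correction for GC content and length, 162 with no filter, 175 with the filter on the mean and 0 with DESeq2 dispersions. The number at 1 CPM (23) was 19 to 26 under other scalings, summaries and left-out libraries, and 11 at 1 CPM per kilobase, a stricter threshold for genes over a kilobase. Scaling cannot change a ratio within a library, and leaving out 1 of 3 libraries moves a mean by less than its SD, so these say little of stability for pairs and single genes. Without library 3, Trpc4 was at 0.797 CPM (1.40 in the main analysis), Asic4 at 1.05 (1.81), Piezo1 minus Piezo2 at 0.38 (0.86) and Kcnk2 minus Kcnk1 at -0.85 (-1.52). Asic1 minus Asic2 was 2.16 (3.42) without library 2, and Trpm7 minus Trpm4 (0.71) was 1.31 without library 1 and 0.24 without library 2. The TRPA sum (0.050) was 0.077 without library 1. By the longest transcript, Trpm7 minus Trpm4 was 0.051 and Piezo1 minus Piezo2 0.46; with no length correction, Piezo1 minus Piezo2 was 0.076 and Kcnk2 minus Kcnk1 -0.37. Summed family levels depended on the length used: with the longest transcript Piezo was 1.54, TRPC 4.16, TRPV 15.7 and TRPM 29.7, and with no length correction, in CPM, Piezo was 14.2, TRPC 17.2, TRPV 56.3, TRPM 193, TRPA 0.213, ASIC 5.26 and K2P 596. The median log2 difference of library 1 over the members tested (21, or 23 without replicate 2), -0.0014 in the main analysis and 0.00049 over all genes, was 0.011 with DESeq2 size factors (0.013 over all genes), -0.13 with plain totals (-0.13 over all genes), -0.18 after removal of GC content and length trends (0.0054 over all genes), and between -0.34 and -0.21 when replicate 3 or 2 was left out (0.00010 and -0.015 over all genes); the cause of these shifts was not tested. Scaled so that all genes per kilobase sum to 1000000, the level was 510 ± 178 for Kcnk5. Orders by the longest transcript or without library 1 were chosen after seeing the data. No paired analysis was possible because all libraries belong to 1 group. Depth limited genes under about 0.152 CPM.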

Other observations

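Beside the 42 channel genes, 2 others were singled out after they were seen. Stoml3, a stomatin-like protein that modulates Piezo channels in sensory neurons, was at 17.7 CPM in library 1 against 0.336 and 0.925 CPM in libraries 2 and 3. It did not enter the test, because its 10 counts in library 2, the deepest, fell short of the filter. Kcnj13, an inward-rectifier potassium channel known in choroid plexus epithelium, was at 2.27, 37.6 and 48.2 CPM and was called variable between libraries (edgeR goodness of fit, adjusted p = 0.000325). The lowest library of Kcnj13 was library 1, as it was for 8 of the 21 members tested and for 40.3% of all genes tested. A link between Kcnj13 and the members was not tested.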
